A study of Mus musculus with 36 samples.

Results

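Maze training in Tau mice was examined in 8 of the 36 hippocampal libraries of the series, namely 4 labelled Tau, 6 months and trained, and 4 labelled Tau, 6 months and naive. The libraries were chosen by these labels alone, and every comparison was repeated without the library labelled Tau trained replicate 4. All mice were female and 6 months old and carried the genotype Tau;PV_Cre;RiboTag, so Cre in parvalbumin interneurons and a taggable copy of the ribosomal protein Rpl22 were present in naive and trained groups alike. The Tau allele is the PS19 line, a human MAPT transgene with the P301S mutation. All mice were handled on 3 days. Naive mice then stayed in the home cage, while trained mice had 6 trials a day for 5 days in the Morris water maze, a pool in which the animal learns where a submerged platform lies. A probe trial followed 24 hours after the last trial, and trained hippocampi were taken 2 hours after the probe trial. Naive mice did not swim, so swimming, handling in the pool and learning cannot be told apart. The RNA is the input fraction, the cleared lysate of both hippocampi before any pull-down of tagged ribosomes. Wild-type mice of the same cross (WT;PV_Cre;RiboTag, 5 trained and 6 naive libraries) were used to test whether training differences were particular to Tau mice. The labels do not say that libraries came from separate mice. The p-values therefore rest on the spread between libraries, part of which may be technical.

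The hippocampus stores spatial memory through plastic glutamatergic synapses between the granule cells of the dentate gyrus and the pyramidal cells of fields CA3, CA2 and CA1. Learning and swimming both recruit activity-regulated genes, among them the neurotrophin gene Bdnf, and calcium signals at the synapse act in part through the phosphatase calcineurin. In PS19 mice the transgene is driven by the mouse prion protein gene promoter, and tau accumulates in neurons of the hippocampus. The dissected hippocampus borders the ventricle, whose walls are lined by ciliated ependymal cells and whose choroid plexus secretes cerebrospinal fluid, and it borders the thalamus and habenula.

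One library stood apart from its label. The prion protein gene Prnp marks the Tau line in these data through reads that align to it. Its level in CPM, the count divided by the scaled library total in M (mega), was 1809.8, 1472, 1492 and 1541 in naive replicates 1 to 4 and 2142, 1759, 2052 and 846 in trained replicates 1 to 4. The library labelled Tau trained replicate 4 therefore lay far under the other 7 and inside the range of the 11 WT libraries, 728 to 879 CPM. The same library held 2.76 CPM of Pvalb, the calcium buffer of parvalbumin interneurons, against 11.9 to 16 CPM in the other 7. Mapt, the mouse tau gene to which human reads may align in part, lay between 510.0 and 577 CPM in all 8. App and Rpl22 overlapped between groups, with log2 differences of 0.10 ± 0.06 and 0.07 ± 0.06 (standard error). Markers of the labelled tissue were present in every Tau library, with the granule cell factor Prox1 at 64.8 to 146 CPM and the CA1 marker Wfs1 at 93.5 to 148 CPM. Total counts of the 8 libraries were 69.2 to 110.2 M (69.2 to 124.8 M over all 36), and no 2 Tau libraries of a group held identical values.

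Bordering tissue also differed between the groups and stands beside many of the results. The 24 tested choroid plexus markers summed to 2627 to 6549 CPM in the naive libraries and 467 to 1258 CPM in the trained ones, so the groups did not overlap. The transport protein Ttr, the most abundant of them, was at 1183, 1417, 1287 and 3324 CPM in naive and 49.3, 492, 63.1 and 67 CPM in trained libraries. The folate receptor gene Folr1 lay between 0.849 and 27.5 CPM, so reads of both genes were counted in every Tau library. In bulk RNA, fewer cells of a type and less RNA per cell cannot be told apart.

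Promoters of 3 genes that the results turn on are shown, because each belongs to genes described further on and holds a motif that was searched for. Each is the 250 bases before an annotated start in RefSeq (build GRCm38.p6, which is not the mm39 build of the counts), written 5′ to 3′ along the gene with the motif in capitals.
Hydin, chr8:110266727-110266976, plus strand: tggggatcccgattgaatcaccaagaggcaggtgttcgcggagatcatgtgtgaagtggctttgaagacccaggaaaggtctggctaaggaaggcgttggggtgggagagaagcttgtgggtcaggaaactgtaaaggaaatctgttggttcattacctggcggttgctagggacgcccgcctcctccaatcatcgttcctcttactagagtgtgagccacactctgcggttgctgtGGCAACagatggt
Bdnf, chr2:109692186-109692435, plus strand: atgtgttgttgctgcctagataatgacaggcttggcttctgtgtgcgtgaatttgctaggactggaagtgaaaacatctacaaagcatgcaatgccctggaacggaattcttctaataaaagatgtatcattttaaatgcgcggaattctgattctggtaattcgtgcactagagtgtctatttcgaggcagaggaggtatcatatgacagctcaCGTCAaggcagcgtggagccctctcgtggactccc
Sult2b1, chr7:45742479-45742728, minus strand: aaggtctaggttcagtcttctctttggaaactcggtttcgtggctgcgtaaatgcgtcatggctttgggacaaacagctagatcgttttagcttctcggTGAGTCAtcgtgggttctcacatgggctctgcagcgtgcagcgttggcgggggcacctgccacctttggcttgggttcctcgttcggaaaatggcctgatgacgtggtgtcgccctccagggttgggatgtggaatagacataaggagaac
The capitals in Hydin, a motile cilia gene, are GTTGCC on the opposite strand, the core of the X-box bound by RFX factors. This motif was searched for after the cilia values were seen. It stood in 10.4% of all 32851 promoters of this length and in 30.4% of the 23 promoters of ependymal list genes. Those promoters belong to 19 genes, of which 7 had the motif. The capitals in Bdnf, 1 of several starts of that gene, are TGACG on the opposite strand, the core of the cAMP response element, a motif in 17.8% of all promoters. In Sult2b1 they are the AP-1 site TGAGTCA, found in 4.46% of promoters. The Sult2b1 stretch also holds the core TGACG on either strand, left in lower case. The starts shown for Bdnf and Sult2b1 were picked for holding the marked motif. All motifs were searched on both strands. The full cAMP response element TGACGTCA, which contains that core, stood in 1.55% of promoters, the E-box CACGTG in 6.02% and the heat shock element GAANNTTC in 6.69%. Gene counts do not tell which start was used, and a match is a description of the sequence.

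Across the transcriptome, training in Tau mice was tested for each of 25382 genes with edgeR's quasi-likelihood test fitted to all 36 libraries, with Benjamini-Hochberg adjustment over all of them. After adjustment, 0% of genes passed at 0.05 in either direction. The smallest adjusted p was 0.0620, shared by 33 genes, and 158 genes lay under 0.1. At an unadjusted p under 0.05, called nominal from here on, 1702 genes lay higher in trained mice (6.71%) and 1815 lower (7.15%). Trained libraries lay above every naive one for 5.65% of genes and beneath every naive one for 5.07%. WT mice gave 5.17% nominal genes in both directions together, 2.58% higher and 2.58% lower, against 13.9% in Tau mice. APP mice gave 4.31% and APP/Tau mice 2.71%, and these groups differ in size. Other tools applied to the same libraries did call genes. DESeq2 called 201 genes higher and 222 lower, limma-voom with quality weights 404 and 375, and edgeR on the 8 Tau libraries alone 80 and 237. All 3 of these called 49 genes higher and 96 lower, and 0 and 0 without the library labelled Tau trained replicate 4. In the main test, leaving out Tau naive replicate 1 gave 113 genes called higher and 62 lower. Nominal genes numbered 865 higher and 647 lower with the library number of the labels as covariate, 3.41% and 2.55% of all genes. They were 4.66% and 4.01% with the choroid plexus score of each library (the mean log2 CPM of the markers) as covariate, and 835 and 819 genes, 3.29% and 3.23%, with the choroid, ependymal and thalamic scores together. Counts of list members under these covariates, given further on, stand against these shares. List counts from the main test stand against 6.71% higher and 7.15% lower in Tau mice, and 2.58% and 2.58% in WT mice.

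Leaving out the library labelled Tau trained replicate 4 gave 0 adjusted calls again, with a smallest adjusted p of 0.151. Nominal genes were then 6.11% higher and 6.15% lower. Limma-voom called 334 genes higher and 237 lower in these 7 Tau libraries, edgeR on the Tau libraries alone called 1 and 3, and DESeq2 called 133 and 0 after its filter gave no adjusted p to 24121 genes. Since nothing passed in the main test, the genes below are given as values. They were taken by smallest p, so their separation is a description.

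Among the genes highest after training was Bdnf, the neurotrophin that strengthens synapses. Bdnf stood at 40.4, 34.1, 38.4 and 39.6 CPM in naive and 52.8, 52.1, 48.1 and 55 CPM in trained libraries. Every trained library lay above every naive one. The log2 difference was 0.45 ± 0.09 (unadjusted p 3.70e-05, edgeR adjusted p 0.062). DESeq2 gave an adjusted p of 0.00747 and limma-voom 0.00953. Without the library labelled Tau trained replicate 4 the log2 difference was 0.42 ± 0.10, limma-voom gave an adjusted p of 0.0197, edgeR on the Tau libraries alone 0.085, and DESeq2 gave none.

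Stxbp6, which encodes the SNARE-binding protein amisyn and is enriched in granule cells, measured 101, 79.4, 67.5 and 87.8 CPM in naive and 115, 124, 125 and 126 CPM in trained libraries. The trained libraries were close together and the naive ones were spread widely beneath them. Its log2 difference was 0.55 ± 0.11 (edgeR adjusted p 0.062). Sult2b1, a cholesterol sulfotransferase, had the largest log2 difference of the 6 genes named first in this direction, 0.89 ± 0.18. Its levels were low, 3.93, 3.63, 3.12 and 2.44 CPM in naive and 7.19, 5.39, 7.0 and 4.73 CPM in trained libraries, without overlap.

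Ppp3r1, the regulatory subunit of calcineurin, lay at 1056, 961, 893 and 976 CPM in naive and 1245, 1236, 1188 and 1317 CPM in trained libraries. The catalytic subunit gene Ppp3ca lay at 1949.7, 1655, 1459 and 1751 and 2144, 2251, 2147 and 2274 CPM. In both subunit genes the groups did not overlap, and the log2 differences were 0.36 ± 0.08 and 0.37 ± 0.09. Ankrd46, an ankyrin repeat protein gene, went from 201 ± 8.36 CPM (SD, n = 4) in naive to 241 ± 3.63 CPM (SD, n = 4) in trained mice. Fam171b differed by 0.37 ± 0.08 on the log2 scale. All 6 genes named here had an edgeR adjusted p of 0.062, and all 6 were called higher by DESeq2, by limma-voom and by edgeR on the Tau libraries alone. In the 7 libraries left without the one labelled Tau trained replicate 4, limma-voom called all 6, edgeR on the Tau libraries alone called 0, and DESeq2 called Ppp3r1, Ankrd46 and Fam171b and gave the other 3 no adjusted p.

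**Figure D1:**
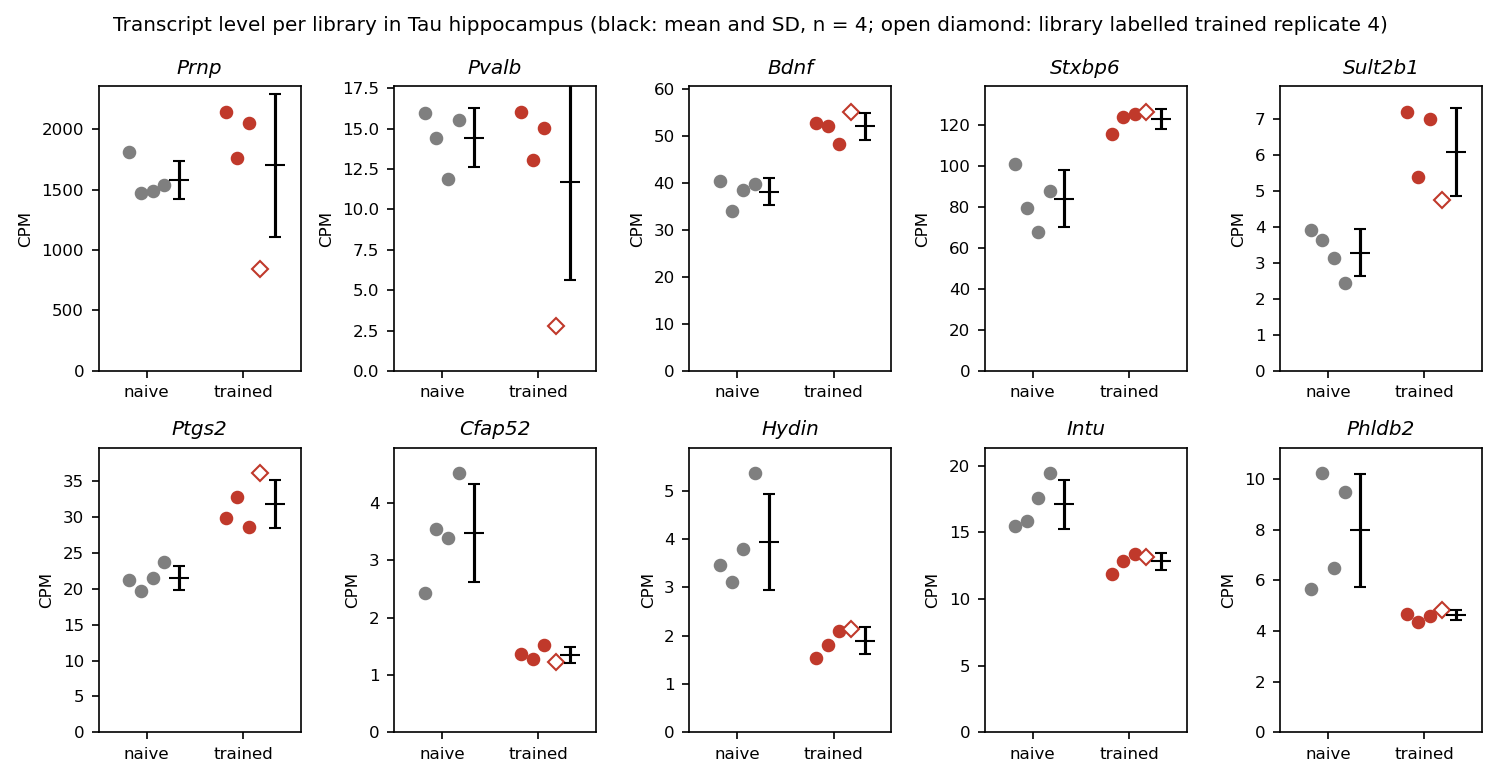
Level in CPM (y axis from 0) of 10 genes in each naive (grey) and trained (red) Tau library, with the mean and SD of 4 in black and the library labelled Tau trained replicate 4 as an open diamond. That library lies apart in Prnp and Pvalb, while Bdnf, Stxbp6, Sult2b1 and Ptgs2 lie higher and Cfap52, Hydin, Intu and Phldb2 lower in every trained library than in any naive one.

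Cfap52 and Intu, both genes of cilia, had the smallest p-values among named genes that lay lower after training. Cfap52, a protein of the motile cilium axoneme, stood at 2.43, 3.55, 3.39 and 4.51 CPM in naive and 1.37, 1.27, 1.53 and 1.22 CPM in trained libraries. Trained values were tightly grouped beneath all naive ones. The log2 difference of -1.36 ± 0.26 had a p of 7.61e-06 (edgeR adjusted p 0.062). Intu, an effector of planar cell polarity needed to build cilia, was at 15.5, 15.8, 17.6 and 19.4 CPM in naive and 11.9, 12.8, 13.4 and 13.2 CPM in trained libraries, a log2 difference of -0.42 ± 0.08 without overlap.

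With the choroid plexus score of each library as a covariate, the log2 difference of Cfap52 became -0.78, and with choroid, ependymal and thalamic scores together it became -0.64. For Intu these values were -0.34 and -0.30. Both stayed below 0 and were smaller in size. Bdnf was at 0.42 and 0.38 in the same fits, and Stxbp6 at 0.59 and 0.64.

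Ccdc136, a coiled-coil protein gene, stood at 79, 88.6, 83.9 and 93.1 CPM in naive and 62.5, 61.3, 68.9 and 57.9 CPM in trained libraries (log2 difference -0.46 ± 0.10). Myo5c, a class V myosin of epithelia, stood at 2.99, 3.90, 3.62 and 5.65 and 1.94, 1.62, 2.01 and 1.45 CPM. Neither gene overlapped between the groups, and the naive replicate 4 value of Myo5c was the highest of the 8. Phldb2, which anchors microtubules at the cell cortex, differed by -0.79 ± 0.17 and the microRNA host transcript Mir100hg by -0.53 ± 0.12 on the log2 scale. The host transcript's value says nothing of the mature microRNAs. Of these 6 genes, DESeq2 and limma-voom called all 6 lower, and edgeR on the Tau libraries alone called all but Phldb2. In the same 7 libraries, limma-voom called all 6 lower, edgeR on the Tau libraries alone called 0, and DESeq2 gave none of them an adjusted p.

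Without the library labelled Tau trained replicate 4, the smallest p-values in the upward direction belonged to Sult2b1 at 1.00 ± 0.18, Phf20, a chromatin reader, at 0.46 ± 0.09, and the zinc finger gene Zfp39 at 0.32 ± 0.07. Phf20 stood at 75.5, 64.3, 74.2 and 81.5 CPM in naive libraries and 101, 108, 95 and 85.7 CPM in trained ones. The library left out was the lowest of the trained 4, yet above all naive libraries. Next came Chn1, a Rac-inactivating protein of dendrites (0.36 ± 0.08), Map2k1, the kinase MEK1 (0.28 ± 0.06), and Pip5k1a, a phosphoinositide kinase (0.35 ± 0.08). In the downward direction Intu, Cfap52 and Phldb2 were joined by 3 further genes. Those were Ttll9, a tubulin-modifying enzyme family member of cilia, at -1.26 ± 0.26, and the kinesin genes Kif27 at -0.77 ± 0.17 and Kif9 at -0.75 ± 0.17. All named genes in this fit had an edgeR adjusted p of 0.151 or more.

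Markers of dentate granule cells lay higher as a list. Of 18 members, 14 were nominally higher and 0 lower, with a median log2 difference of 0.42, beside a median of -0.01 over all genes tested. Without the library labelled Tau trained replicate 4 the count was again 14 and the median 0.43. The list score, the mean log2 CPM of the members relative to all 36 libraries, was -0.01, -0.17, -0.39 and -0.02 in naive and 0.17, 0.43, 0.17 and 0.27 in trained libraries. No trained score overlapped a naive one. WT scores were -0.09 to 0.14 in naive and -0.24 to 0.27 in trained libraries, so the Tau naive group sat at the low side of naive WT and the Tau trained group at the high side.

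C1ql2, a synaptic organiser secreted by granule cells, stood at 35.1, 36.2, 41.4 and 51.2 CPM in naive and 70.1, 85.2, 61.3 and 87.8 CPM in trained libraries. Its log2 difference was 0.89 ± 0.24 (edgeR adjusted p 0.102), the largest of the list. Lct differed by 0.68 ± 0.21 and Prox1, the factor that sets granule cell identity, by 0.43 ± 0.19, both without overlap. Calb1, the calcium buffer calbindin, overlapped between the groups, at 116, 114, 129 and 103 CPM in naive and 124, 126, 115 and 116 CPM in trained libraries. With the choroid score as covariate 13 of the 18 were nominally higher, beside 4.66% of all genes, and the median was 0.41. With all 3 bordering-tissue scores, 13 were nominally higher again and the median was 0.50, while 3.29% of all genes were nominally higher in that fit. With the library number of the labels as covariate, 5 were nominally higher, beside 3.41% of all genes, and the median was 0.34.

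CA1 pyramidal markers had a median of 0.23, with 8 of 15 nominally higher and 0 lower, beside 6.71% and 7.15% of all genes. Itpka, a kinase of inositol trisphosphate in dendritic spines, measured 164, 162, 142 and 145 CPM in naive and 220.4, 194, 177 and 218 CPM in trained libraries (log2 difference 0.40 ± 0.13). Ndst4, a heparan sulfate enzyme, and Pou3f1, a neuronal transcription factor, differed by 0.42 ± 0.14 and 0.32 ± 0.11. All 3 were free of overlap, whereas Wfs1 overlapped, with a log2 difference of 0.09 ± 0.17. The CA1 list had 5 nominally higher genes without the library labelled Tau trained replicate 4 and 2 with the choroid covariate (4.66% of all genes). It had 0 higher and 1 lower with the 3 scores and likewise with the library number, where the median was 0.09. CA2 and CA3 markers had 6 of 20 nominally higher and 2 lower, beside 6.71% and 7.15% of all genes, and a median of 0.08. The lower ones include a member that is also in the choroid plexus list. Of these 20, 3 were nominally higher without the library labelled Tau trained replicate 4, 4 with the choroid covariate, 2 with the 3 scores and 0 with the library number. Scores of these markers overlapped, at -0.04 to 0.20 in naive and -0.14 to 0.05 in trained libraries. Rgs14, a regulator of plasticity in CA2, differed by 0.31 ± 0.10 and Coch, a secreted matrix protein, by -1.26 ± 0.39.

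Synaptic genes were examined as postsynaptic, receptor and presynaptic lists. Of 37 postsynaptic scaffold and kinase genes, 18 were nominally higher and 1 lower, with a median of 0.18. Scores were -0.00, -0.12, -0.03 and -0.07 in naive and 0.11, 0.14, 0.05 and 0.10 in trained libraries, again without overlap. Dlg3, the scaffold SAP102, stood at 209.6, 174, 190.1 and 187 CPM in naive and 222, 242, 216 and 230.4 CPM in trained libraries (log2 difference 0.26 ± 0.06, edgeR adjusted p 0.0767). Prkcb, a protein kinase C isoform, differed by 0.24 ± 0.07. The postsynaptic count was 10 of 37 with the choroid covariate (4.66% of all genes), 8 with the library number (3.41%) and 3 with the 3 scores (3.29%), where the median was 0.07.

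**Figure D2:**
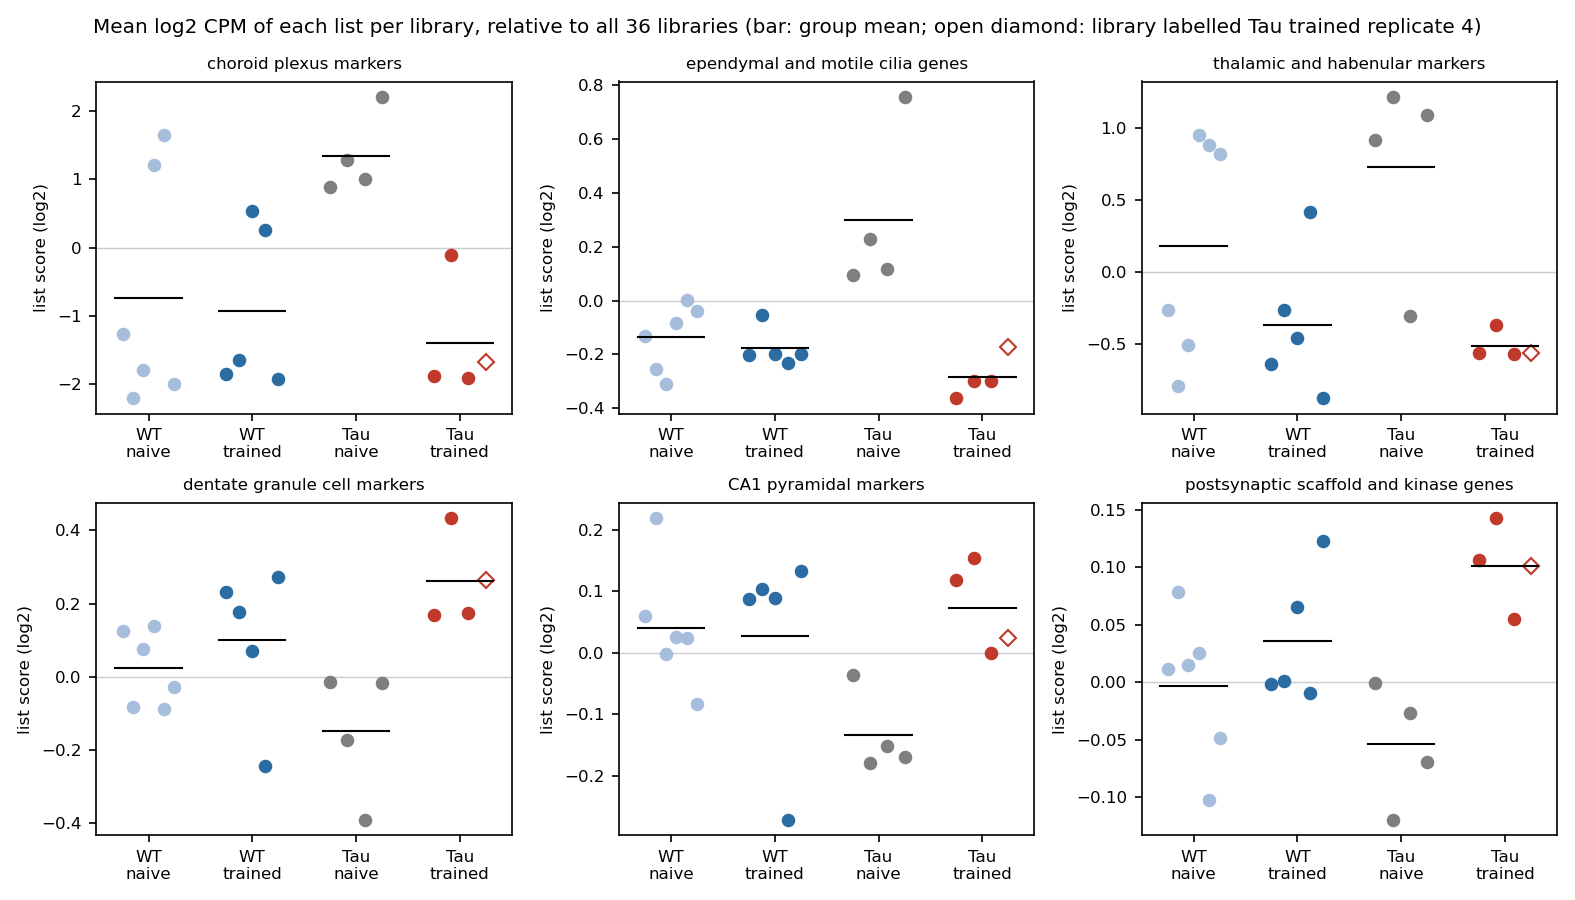
List score (mean log2 CPM of members relative to the mean of all 36 libraries, y axis) for 6 gene lists in each library of WT naive, WT trained, Tau naive and Tau trained mice, with bars at group means and the library labelled Tau trained replicate 4 as an open diamond. In Tau mice the trained libraries lie under all naive ones for the 3 bordering-tissue lists and above all naive ones for the granule cell, CA1 and postsynaptic lists.

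Of 36 receptor genes for glutamate and GABA, 12 were nominally higher and 3 lower, beside 6.71% and 7.15% of all genes. Receptor scores overlapped, at 0.012 to 0.112 in naive and 0.051 to 0.111 in trained libraries. Gabra5, the receptor subunit of extrasynaptic inhibition in the hippocampus, stood at 185, 142, 131 and 153 CPM in naive and 219, 222, 203 and 216 CPM in trained libraries, a log2 difference of 0.49 ± 0.11 (edgeR adjusted p 0.062). Grin1, the obligatory NMDA receptor subunit, differed by 0.21 ± 0.06 without overlap. The receptor count was 8 higher without the library labelled Tau trained replicate 4, 5 with the choroid covariate, 4 with the 3 scores and 3 with the library number. Presynaptic scores also overlapped, at -0.07 to 0.03 in naive and 0.02 to 0.12 in trained libraries. Among 33 presynaptic genes, with a median of 0.12, 10 were nominally higher and 0 lower. These included the fission GTPase gene Dnm1 at 0.19 ± 0.06, the complexin gene Cplx2 at 0.21 ± 0.08 and the synapsin gene Syn2 at 0.17 ± 0.07. The presynaptic count was 6 without the library labelled Tau trained replicate 4, 4 with the choroid covariate and 2 with the library number. With the 3 scores it was 1 of 33, no larger a share than the 3.29% of all genes, and the median was 0.04. The kinase gene Mapk10, from a list of 37 tau kinase and phosphatase genes with 7 nominally higher and 0 lower, differed by 0.18 ± 0.06. That list had 4 nominally higher with the choroid covariate, 2 with the library number and 1 with the 3 scores. Its list scores overlapped, at -0.085 to 0.0028 in naive and 0.0015 to 0.062 in trained libraries.

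Activity-regulated genes were mixed 2 hours after the probe trial. Of 44, 7 were nominally higher and 1 lower and the median was -0.01. With the 3 scores and with the library number 4 were nominally higher. Besides Bdnf, the prostaglandin synthase gene Ptgs2 stood at 21.2, 19.7, 21.5 and 23.7 CPM in naive and 29.8, 32.8, 28.6 and 36 CPM in trained libraries, without overlap and with a log2 difference of 0.56 ± 0.13 (edgeR adjusted p 0.0716). Nrn1, a neuritin that promotes neurite growth, differed by 0.26 ± 0.07. The rapidly induced factors, named after their values were seen, went otherwise. Fos stood at 15.2, 9.70, 15.4 and 13.1 CPM in naive and 3.55, 5.14, 7.82 and 13.5 CPM in trained libraries. Only the library labelled Tau trained replicate 4 lay within the naive range, and the log2 difference was -0.84 ± 0.46 with it and -1.28 ± 0.49 without it. Npas4 differed by -0.41 ± 0.27 with that library and -0.66 ± 0.28 without it. Arc at -0.01 ± 0.33 and Egr1 at -0.20 ± 0.25 overlapped between the groups.

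Glucocorticoid-responsive genes had a median of 0.15 in Tau mice and 0.14 in WT mice. In Tau mice 4 of 23 were nominally higher and 1 lower, and in WT mice 5 and 0. Of all genes, 6.71% were nominally higher in Tau mice and 2.58% in WT mice. Tau scores overlapped, at -0.54 to 0.06 in naive and -0.16 to 0.21 in trained libraries. With the library number as covariate the Tau median turned to -0.12, with 0 higher and 2 lower, and with the 3 scores 2 were higher. Fkbp5, a co-chaperone induced by the glucocorticoid receptor, stood at 64.6, 50.7, 50.5 and 57 CPM in naive and 67.3, 75.7, 72.1 and 70.6 CPM in trained libraries (log2 difference 0.36 ± 0.13). The mineralocorticoid receptor gene Nr3c2 differed by 0.33 ± 0.12 and the Krüppel-like factor gene Klf9 by 0.27 ± 0.09. Heat shock and chaperone genes had a median of -0.01 and 2 of 27 nominally higher, a share of 7.41% beside 6.71% of all genes. The constitutive chaperone gene Hspa8 was lower in every trained library, 782, 835, 988 and 1051 CPM against 1333, 1074, 1071 and 1112 CPM in naive libraries, though the unadjusted p was 0.0801. Hspa2, another member of that chaperone family, differed by 0.25 ± 0.09. Of 24 genes of the unfolded protein and integrated stress response, 1 was nominally higher, the sensor gene Atf6 at 0.27 ± 0.09, and 1 lower.

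Genes of RNA and protein handling were examined as 5 lists, and oxidative phosphorylation genes beside them. Of 52 genes of heterogeneous nuclear ribonucleoproteins and RNA-binding proteins, 10 were nominally higher and 1 lower (median 0.06). That count of higher genes was 7 with the choroid covariate, 8 with the 3 scores and 7 with the library number. The medians were 0.06, 0.08 and 0.07 in these fits. Scores of this list overlapped, at -0.068 to -0.003 in naive and -0.005 to 0.052 in trained libraries. Rbfox1, a neuronal splicing regulator, stood at 459, 412, 363 and 421 CPM in naive and 481, 524, 531 and 552 CPM in trained libraries, with a log2 difference of 0.34 ± 0.08 (edgeR adjusted p 0.0647). Rbfox3, the neuronal nuclear antigen, differed by 0.22 ± 0.06. Core splicing factors were nearly flat in Tau mice, at 2 of 60 nominally higher and a median of 0.02. In WT mice 10 of 60 were nominally higher, beside 2.58% of all genes, with a median of 0.09. WT trained replicates 1 and 2 scored 0.22 and 0.20 on this list. WT trained replicates 3, 4 and 5 scored 0.06, 0.05 and -0.0003, inside the naive WT range of -0.16 to 0.12. Nucleolar and ribosome assembly genes counted 10 of 50 nominally higher and 1 lower, with the nucleolar factor gene Dnttip2 at 0.44 ± 0.14 and the ribosome maturation gene Tsr1 at 0.17 ± 0.05. The nucleolar count was 4 with the choroid covariate, 3 with the 3 scores and 1 with the library number. Nucleolar scores overlapped, at -0.07 to -0.03 in naive and -0.04 to 0.05 in trained libraries. Proteasome genes counted 8 of 31 higher and 0 lower, and all 31 had a log2 difference above 0, beside 47.9% of all genes, with a median of 0.12. The proteasome count was 9 with the choroid covariate, 2 with the 3 scores and 2 with the library number, where the medians were 0.13, 0.11 and 0.09. Proteasome scores overlapped, at -0.11 to 0.03 in naive and -0.02 to 0.11 in trained libraries. Psmd6, a lid subunit of the proteasome, stood at 55.3, 50.5, 49.1 and 50.1 CPM in naive and 60.5, 59, 55.7 and 58.1 CPM in trained libraries, which did not overlap. Cytosolic ribosomal protein genes had 1 of 79 (1.27%) and oxidative phosphorylation genes 5 of 74 (6.76%) nominally higher, beside 6.71% of all genes. Their medians were 0.04 and 0.04. The latter count was 2 with the 3 scores and 1 with the library number.

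Of the 44 lists, choroid plexus markers had the lowest median. All 24 choroid plexus markers were nominally lower in trained mice and free of overlap, with a median of -2.89 on the log2 scale. Without the library labelled Tau trained replicate 4, 16 of 24 were nominally lower and the median was -2.75. With the library number as covariate 0 of 24 were nominally lower and the median was -0.997. Scores were 0.89, 1.29, 1.01 and 2.21 in naive and -1.88, -0.10, -1.91 and -1.67 in trained libraries, so naive replicate 4 was the richest and trained replicate 2 the closest to the naive group. The sulfate transporter gene Slc13a4 differed by -1.92 ± 0.60, the sulfatase gene Sulf1 by -2.07 ± 0.68 and the homeobox gene Msx1 by -1.29 ± 0.39. WT naive libraries ranged from -2.21 to 1.66 and WT trained ones from -1.92 to 0.54, so of these 4 groups Tau naive was the one without a low library. In WT mice the choroid median was -0.76 with 0 of 24 nominal.

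Ependymal and motile cilia genes were nominally lower in 16 of 24 and higher in 0, with a median of -0.71. Hydin, whose promoter is shown above and which builds the central pair of motile cilia, stood at 3.46, 3.10, 3.80 and 5.35 CPM in naive and 1.54, 1.80, 2.11 and 2.14 CPM in trained libraries. Trained values were all beneath the naive ones, and the log2 difference was -1.05 ± 0.24 (edgeR adjusted p 0.0716). Dnah11, an axonemal dynein, differed by -1.29 ± 0.33 and Rsph4a, a radial spoke protein, by -0.69 ± 0.18. Scores of the ependymal list were 0.10 to 0.76 in Tau naive libraries, against -0.31 to 0.00 in WT naive ones, so every Tau naive library lay above all naive WT libraries. Foxj1, the master factor of motile cilia, stood at 14.2, 14.8, 12.2 and 23.1 CPM in naive and 9.27, 10.3, 10.0 and 10.1 CPM in trained libraries, again without overlap. With the choroid score as covariate 8 of 24 were nominally lower, beside 4.01% of all genes, and the median was -0.33. With the library number 5 were, beside 2.55%, and the median was -0.38. The ependymal genes enter the covariates of the fit with 3 scores, so no value is read from it.

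Thalamic and habenular markers were nominally lower in 13 of 19, with a median of -0.92. The count was 9 without the library labelled Tau trained replicate 4, 4 with the choroid covariate and 2 with the library number, where the median was -0.39. The transcription factor gene Shox2 stood at 6.64, 13.8, 0.318 and 10.3 CPM in naive and 0.0849, 0.113, 0.0481 and 0.147 CPM in trained libraries, so naive replicate 3 was close to the trained group. Rgs16, a G protein regulator, and Lef1, a Wnt effector, differed by -1.41 ± 0.40 and -1.34 ± 0.40. The thalamic median in WT mice was -0.43 with 7 nominally lower. Mural cell and fibroblast markers had 8 of 23 nominally lower (median -0.28), among them Igf2, a growth factor of meninges and choroid plexus, at -1.92 ± 0.59. Of these, 3 were nominally lower with the choroid covariate, 1 with the 3 scores and 4 with the library number. Endothelial markers had 5 of 22 nominally lower (median -0.16). The endothelial count was 1 without the library labelled Tau trained replicate 4, under the 6.15% of all genes, and it was 0 with each of the 3 sets of covariates. Striatal markers had 1 higher and 1 lower of 18 in Tau mice, whereas 7 were nominally higher in WT mice. How far bordering tissue enters the neuronal results was not tested beyond the covariate values given here.

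**Figure D3:**
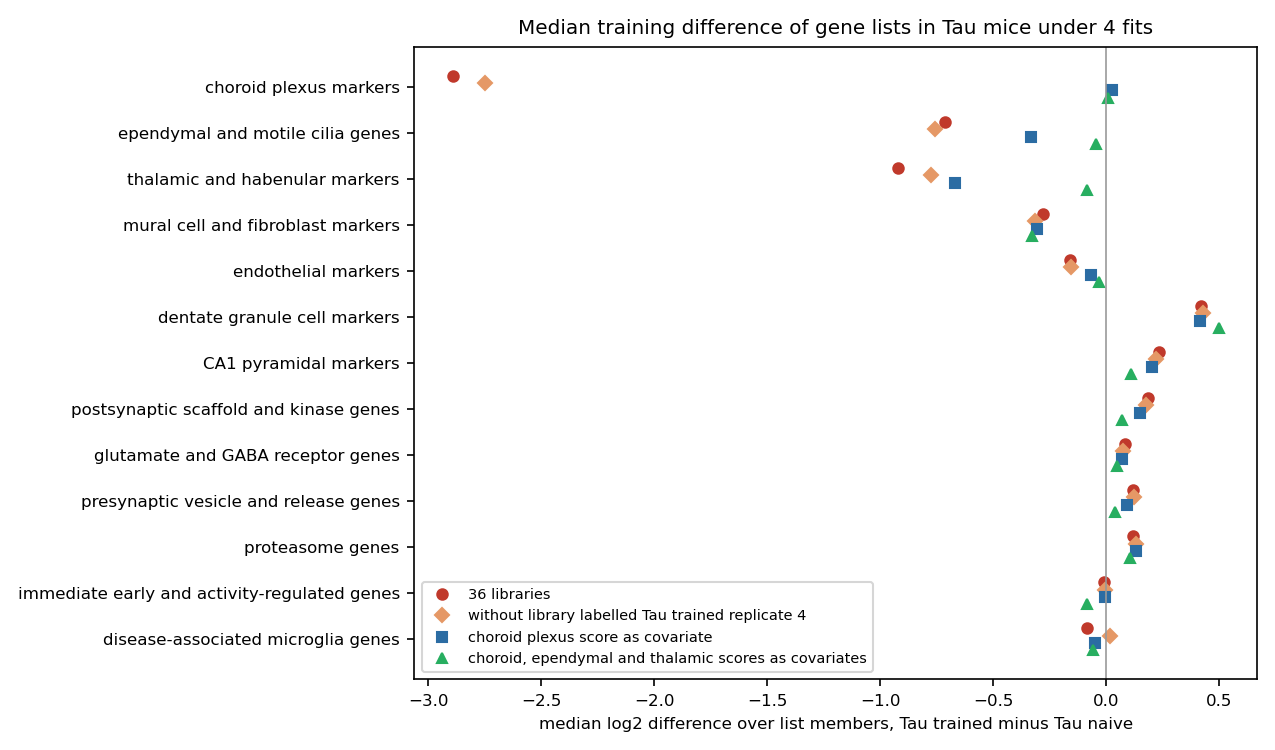
Median log2 difference (trained minus naive Tau mice, x axis) over the members of 13 gene lists (y axis) in the fit to 36 libraries, without the library labelled Tau trained replicate 4, and with 1 or 3 bordering-tissue scores as covariates. The granule cell median stays between 0.41 and 0.50 in all 4 fits shown, while the choroid median is near 0 once its own score is a covariate, by construction.

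Immune, glial and interneuron lists overlapped between trained and naive libraries. Disease-associated microglia genes had 1 of 30 nominally higher and 1 lower, and their scores were -0.12, 1.17, -0.25 and -0.13 in naive and 0.25, -0.27, 0.88 and -0.40 in trained libraries. Naive replicate 2 and trained replicate 3 were the high libraries of their groups. The same pair stood out in Clec7a, a receptor of activated microglia, at 0.452, 8.79, 0.147 and 0.340 CPM in naive and 1.39, 0.204, 6.55 and 0.0590 CPM in trained libraries. Interferon-stimulated genes had 0 of 30 higher and 1 lower, complement and MHC genes 0 of 24 higher and 2 lower, and reactive astrocyte genes 0 of 23 higher and 3 lower. In these 3 lists 29, 22 and 19 members lay below 0, with medians of -0.33, -0.26 and -0.35. Over all genes, 47.9% lay above 0. Without the library labelled Tau trained replicate 4 the medians were -0.20, -0.17 and -0.24. Naive replicate 2 scored 1.31 for complement and MHC genes (others -0.13 to -0.03) and 1.32 for reactive astrocyte genes (others -0.20 to -0.11). Interferon scores ranged from -0.41 to 1.41 in naive and from -0.59 to 0.79 in trained libraries. Mature oligodendrocyte genes had 0 of 25 nominal in either direction. Parvalbumin interneuron genes had 1 of 20 higher and 0 lower, with a median of -0.03. In the perineuronal net list, 3 of 23 were higher and 5 lower, with the link protein gene Hapln1 at 0.33 ± 0.10 and the matrix protease gene Adamts15 at -0.77 ± 0.23. These counts were 2 and 3 without the library labelled Tau trained replicate 4, and with the library number 0 and 1. Immature neuron genes had 2 of 19 higher and 3 lower, Neurod1 at 0.32 ± 0.11 and Sox4 at -0.25 ± 0.08 among them, and 1 and 1 without the library labelled Tau trained replicate 4.

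Of 26 neurofilament and axonal cytoskeleton genes 5 were nominally higher and 0 lower, with a median of 0.06. That count was 1 with the choroid covariate and with the library number and 0 with the 3 scores. Scores of this list overlapped, at -0.075 to 0.051 in naive and -0.005 to 0.087 in trained libraries. Cortical and subicular markers had 2 of 16 higher and 3 lower, and oligodendrocyte precursor genes 2 of 19 higher and 2 lower. Of 33 lysosomal and autophagy genes 2 were nominally higher and 0 lower, among them Atp6v1a, a subunit of the lysosomal proton pump, at 0.23 ± 0.06. Neuropeptide and granin genes had 1 of 26 higher and 2 lower. The lower ones were Trh, which stood at 0.567, 0.525, 11.9 and 1.05 CPM in naive and 0.207, 0.408, 0.265 and 0.251 CPM in trained libraries, and Cartpt at 1.64, 2.23, 6.09 and 1.04 and 0.764, 0.896, 0.878 and 1.40 CPM. In both peptide genes naive replicate 3 was far above the other libraries of its group. Circadian clock genes had 1 of 21 higher and 2 lower, and the lower ones included Rora (-0.76 ± 0.26), which is also in the thalamic list. Nuclear-retained RNAs had 2 of 14 nominally higher and 0 lower, with a median of -0.05. Meg3, a member of that list that was not nominal, differed by -0.43 ± 0.24.

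Whether training acted differently in Tau and WT mice was tested as the difference of the 2 training effects. After adjustment 0% of 25382 genes passed (smallest edgeR adjusted p 0.321), and 8.59% were nominal. DESeq2 called 15 genes. The comparison without the library labelled Tau trained replicate 4 gave 0 calls and 7.95% nominal genes, and DESeq2 called 8. A difference in training response between the genotypes was therefore not shown for any gene by the main test.

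The smallest p-values of that comparison are given as values. Sult2b1 differed by 0.89 ± 0.18 in Tau and -0.12 ± 0.15 in WT mice, a difference of 1.01 ± 0.23. Fancf, a subunit of the Fanconi anaemia core complex, went 0.53 in Tau and -0.32 in WT mice. Gabra5 went 0.49 and -0.11. Emc10, a subunit of the endoplasmic reticulum membrane complex, and Tmem68, a lipid enzyme of that membrane, differed between genotypes by 0.40 ± 0.10 and 0.40 ± 0.10.

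In the other direction Cfap69, a motile cilium protein gene, went -0.62 in Tau and 0.23 in WT mice, and Rrp1b, a nucleolar protein gene, -0.37 and 0.26. Intu, Myo5c and Ccdc80, a secreted matrix protein gene, differed by -0.46 ± 0.11, -1.31 ± 0.33 and -1.19 ± 0.31. Bdnf was at 0.00 ± 0.08 and Ptgs2 at -0.11 ± 0.11 in WT mice, and their differences from WT were 0.45 ± 0.12 and 0.68 ± 0.17 (edgeR adjusted p 0.435 and 0.364). Of the granule cell markers, 5 of 18 were nominal in the difference from WT, all higher in Tau, beside 4.44% of all genes, and 3 were without the library labelled Tau trained replicate 4. Ependymal genes were nominally lower in 10 of 24, beside 4.15%, and splicing factors in 7 of 60. Without that library these counts were 10 and 6. Splicing scores of the WT trained libraries were uneven, as given above. Other lists also had nominal members in the difference from WT. Postsynaptic genes were higher in 9 of 37 and lower in 2, and without that library in 9 and 0. Proteasome genes were higher in 6 of 31, and in 7 without that library. Striatal markers were lower in 7 of 18, and in 6 without it.

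**Figure D4:**
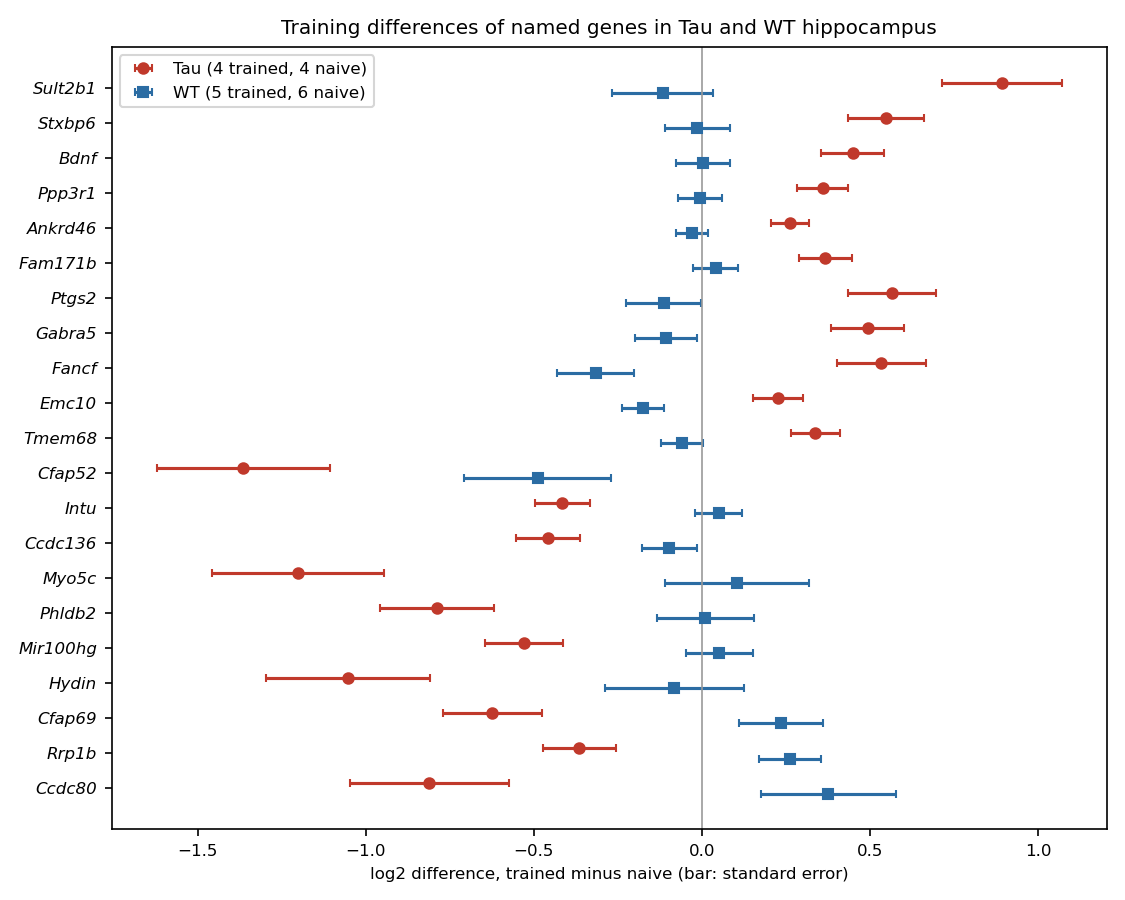
Log2 difference between trained and naive mice (x axis, with standard error) of 21 named genes (y axis) in Tau mice (red) and WT mice (blue). The genes were chosen by small p in Tau mice or in the difference from WT, so the smaller size of most WT values is set by that choice. Some genes, such as Rrp1b and Emc10, lie on opposite sides of 0 in the 2 genotypes, and no difference between genotypes passed after adjustment.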

How the data were processed

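Bulk messenger RNA was measured in the input fraction of hippocampal lysates. Library preparation took 100 ng of RNA with poly(A) selection, and paired reads of 150 bases were sequenced to a planned 40 M, per the labels' protocols. The authors deposited raw counts for 50559 gene symbols. Trimming with Trimmomatic 0.39 and the build mm39 are named in the submitters' processing notes. Totals exceeded that plan. Aligner, counter, strand setting and whether mates were counted separately: not given in the sources used here. Antisense, overlapping and near-identical genes are therefore uncertain.

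The deposited counts entered edgeR 4.0.16 (R 4.3.3). A count was present for 41519 genes, and filterByExpr (minimum count 10, minimum total 15) kept 25382, scaled by TMM. One quasi-likelihood model with robust estimation held the means of 8 groups over 36 libraries, and 25391 genes were tested without the library labelled Tau trained replicate 4. A standard error is the size of the log2 difference over the square root of the quasi-F statistic. CPM is the count over the TMM-scaled total in M, and list scores use log2 CPM with a prior count of 2. Alternatives used DESeq2 1.42.0 and limma 3.58.1, and the code was tested on simulated data.

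The genes named are Prnp, Mapt, App, Pvalb and Rpl22. As none passed, the rule adds the 6 smallest p-values in each direction among genes averaging at least 0 on the log2 CPM scale and without a predicted name, 6 without the library labelled Tau trained replicate 4, 5 in the difference from WT, and up to 3 per list. Some genes that the rule names are not reported here. Ttr, Folr1, Foxj1, Prox1, Calb1, Wfs1, Clec7a, Fos, Arc, Egr1 and Npas4 were named after their values were seen. Members and lists were chosen with earlier results of these data known.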

Additional observations from a re-analysis of the deposited data

Results flagged for a closer look

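Within each group of 4 Tau libraries, a value was singled out where its gap to the nearest other library, divided by the range of the group, exceeded 0.829, Dixon's critical value. Of 274 groups of values (genes named in the text and all 44 list scores, naive and trained apart), 22 were singled out, and chance gives about 1 in 20 groups. No difference in training effect between Tau and WT mice passed the test, so none is listed. The values follow without explanation.

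In naive replicate 1, the CPM of Grin1 was 481 (others 430.3 to 437), of Hspa8 1333 (others 1071 to 1112) and of Atf6 92 (others 77.2 to 79.1), and the score of the glutamate and GABA receptor list was 0.11 (others 0.01 to 0.02). In naive replicate 2, Clec7a stood at 8.79 CPM (others 0.147 to 0.452), and the scores were 1.31 for complement and MHC genes (others -0.13 to -0.03), 1.17 for disease-associated microglia genes (others -0.25 to -0.12) and 1.32 for reactive astrocyte genes (others -0.20 to -0.11). In naive replicate 3, Trh stood at 11.9 CPM (others 0.525 to 1.05) and the myelin and mature oligodendrocyte score was -0.27 (others 0.24 to 0.32). Ttr, at 3324 CPM (others 1183 to 1417), and Msx1, at 22.7 CPM (others 9.10 to 10.6), stood out in naive replicate 4.

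Among trained libraries, replicate 1 had 577 CPM of Mapt (others 536 to 542). Replicate 2 had 492 CPM of Ttr (others 49.3 to 67), 4.97 CPM of Folr1 (others 0.849 to 1.12) and 14.4 CPM of Sulf1 (others 7.54 to 7.85). Its scores were -0.10 for choroid plexus markers (others -1.91 to -1.67) and -0.37 for thalamic and habenular markers (others -0.57 to -0.56). Replicate 3 had 1107 CPM of Prkcb (others 1183 to 1198) and a complement and MHC score of 0.80 (others -0.39 to -0.22). The library labelled Tau trained replicate 4 had 19.8 CPM of Dnttip2 (others 22.8 to 23.4) and 19 CPM of Npas4 (others 10.2 to 11.4).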

How the results depend on the processing

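The main test called 0 genes in Tau mice, and so did fits with RLE size factors, with no filter on low counts, with either set of bordering-tissue covariates and with the library number as covariate. With a replicate block 0 genes were called and 1643 and 1684 were nominal (1323 and 1219 without the library labelled Tau trained replicate 4). Same-numbered naive and trained libraries had correlations of deviations of -0.016, -0.100, -0.053 and 0.046. Pairs with different numbers had -0.165 to 0.220, and the main test did not pair libraries. DESeq2 called 201 genes higher and 222 lower (no adjusted p for 5417 genes), limma-voom with quality weights 404 and 375, and the fit on the Tau libraries alone 80 and 237. Without the library labelled Tau trained replicate 4 these counts were 133 and 0 (no adjusted p for 24121 genes), 334 and 237, and 1 and 3, with 2636 and 2408 nominal in limma-voom. DESeq2 called 1 gene for training in WT and 15 for the difference from WT, or 8 without the library labelled Tau trained replicate 4. The cause of these differences between tools was not tested.

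Nominal counts were 865 and 647 with the library number as covariate (617 and 714 without the library labelled Tau trained replicate 4). With the choroid score as covariate 1018 genes were nominally lower, and 1006 higher without that library. With 3 scores, an alternative chosen after seeing the data, the counts were 835 and 819 (794 and 814 without that library). The library numbers of trained and naive Tau libraries do not interleave, so training and whatever those numbers mark cannot be told apart.

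Leaving out each library in turn gave 0 to 113 genes called higher and 0 to 62 lower, with the highest values without Tau naive replicate 1. Nominal genes ranged from 1214 to 2006 higher and 1347 to 2023 lower. Starting without the library labelled Tau trained replicate 4, calls ranged from 0 to 21 and 0 to 11, again highest without Tau naive replicate 1. Nominal genes then ranged from 902 to 1933, lowest without Tau trained replicate 2, and from 964 to 1814, lowest without Tau trained replicate 1. Training in WT gave 0 to 2 calls, with 2 without WT trained replicate 4, and 1 each without WT trained replicates 3 and 5. The difference from WT gave 0 to 1, the 1 without Tau naive replicate 2, and 0 to 0 without the library labelled Tau trained replicate 4. Where 1 trained or naive library was left out, the spread was pooled over all groups. Signs were followed through 17 alternatives to the fit of 36 libraries, among them leaving out each Tau library. Of 44 list medians, 19 kept their sign in all 17, and so did 151 of 167 genes.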
